A study of Mus musculus with 4 samples.

Results

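The 2 h array compared dentate gyrus RNA of mice given MK-801 with that of mice given saline, 2 h into a series that held 1 such array at each of 1, 2, 4 and 6 h. All mice were young male C57BL/6J. Per the labels, the saline mice received 5 µL per g body weight and their RNA carried Cyanine-3, while the MK-801 mice received 300 µg per g and their RNA carried Cyanine-5. The dose is printed with the unit of the labels. The labels count the hours from a final shock given to MK mice yet call the RNA that of control mice, so whether either group was shocked is not settled, and they do not say how many mice were pooled. Of 16281 features of the deposited table, 12227 held a value at 2 h (an exact 0 was read as no value). Of these, 10633 had 1 gene symbol in the platform annotation and stood for 8969 genes. A gene measured by more than 1 feature took their mean.

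The dentate gyrus is the gate through which most cortical input enters the hippocampus, and its granule cells are glutamatergic neurons that fire sparsely. NMDA receptors are glutamate-gated channels that admit calcium when a cell is depolarised, and MK-801 (dizocilpine) plugs the open channel. Calcium entry through these receptors is one of the signals that switch on immediate early genes, the transcription factors and synaptic proteins made within minutes of neuronal activity.

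Every value below is a log ratio of the 2 channels, read as log2, less the median of its array (0.0093 at 2 h). The base of the logarithm is not stated and natural logarithms are not excluded. Which channel stands on top of the ratio is not stated either, so a positive value may stand for the higher level in either treatment, and genes are described by sign alone. This was 1 array without a repeat and without exchanged dyes, so its values carry no replicate error. The tissue held many cell types, and fewer cells of a type and less RNA per cell cannot be told apart. Over the 8969 genes the median was 0.0045, with quartiles of -0.14 and 0.16, and 50.8% of genes were above 0.

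Values of clock genes lay far apart on the 2 h array. Tef, a PAR bZIP transcription factor driven by the circadian clock, was at 0.84 at 2 h, the fifth highest gene of the array, against -0.0088 at 1 h, 0.08 at 4 h and 0.13 at 6 h. Per1, a repressor of the clock that light and glucocorticoids also induce, was negative on both of its features, at -0.63 and -0.32. The first Per1 feature was at -0.36, -0.55 and -0.44 at 1, 4 and 6 h and the other at -0.53, -0.36 and -0.40, so Per1 was negative at every time, while Tef was near 0 at the other times. Both genes carry the clock-type E-box, CACGTG, the site bound by CLOCK and BMAL1, within 250 bases upstream of a RefSeq start, and these stretches are shown because they put the same letters before the highest and one of the lowest clock genes. The sequences are those of RefSeq on GRCm38.p6, plus strand, ending at the base before the start, with the E-box in capitals.
Tef, upstream of its first start, chr15:81802423-81802672: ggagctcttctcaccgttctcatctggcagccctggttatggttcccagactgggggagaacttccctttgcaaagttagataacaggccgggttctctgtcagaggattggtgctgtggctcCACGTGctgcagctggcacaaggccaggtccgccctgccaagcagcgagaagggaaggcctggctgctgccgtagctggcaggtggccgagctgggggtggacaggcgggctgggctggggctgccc
Tef, upstream of its other start, chr15:81811164-81811413: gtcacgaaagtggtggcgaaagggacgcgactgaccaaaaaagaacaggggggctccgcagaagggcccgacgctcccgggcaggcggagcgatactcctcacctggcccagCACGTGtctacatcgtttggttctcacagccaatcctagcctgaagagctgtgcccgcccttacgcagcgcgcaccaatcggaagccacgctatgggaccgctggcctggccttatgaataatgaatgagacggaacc
Per1, upstream of its first start, chr11:69098699-69098948: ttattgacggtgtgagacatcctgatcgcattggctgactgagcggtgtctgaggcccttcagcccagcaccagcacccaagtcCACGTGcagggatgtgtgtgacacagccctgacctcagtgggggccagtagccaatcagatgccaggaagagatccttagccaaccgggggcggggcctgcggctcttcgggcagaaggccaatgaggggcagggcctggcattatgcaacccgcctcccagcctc

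The E-box lay 127 and 138 bases before the 2 Tef starts and 166 bases before the first Per1 start, and a further Per1 start had no CACGTG in its window. Of all 7136 measured genes with a promoter entry, 9.42% had CACGTG in such a window. Tef and Per1 were picked by their values, and the windows of the other clock genes are not given. A match is a string of letters, not a bound site. Among 15 measured clock genes 6 were above 0 and 9 below, with a median of -0.017. Cry1, a repressor partner of the PER proteins, was at 0.56 and 0.23 on its 2 features, and the same features were at 0.53 and 0.18 at 4 h, at 0.40 and 0.24 at 6 h and at -0.08 and 0.02 at 1 h. Arntl, which encodes BMAL1, was at 0.19 and Per2 at 0.15. Dbp, a close relative of Tef with the same DNA-binding domain, did not share its value: its 2 h value of -0.11 came after 0.84 at 1 h and before -1.51 and -0.89 on the later arrays. Rora, a nuclear receptor that drives Arntl, read -1.47, on a feature numbered 15772 that lay among many low features, described further on.

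The immediate early genes had values on both sides of 0. Of 49 measured, 20 were above 0 and 29 below, with a median of -0.022 against 0.0045 for all genes. At or beyond 0.5, the size used for a call throughout, were Klf9 (0.57) and Pim1 (0.56) on the positive side and Nr4a2 (-0.85) and Fos (-0.52) on the negative side. Over all 8969 genes, 185 (2.06%) were at or above 0.5 and 323 (3.6%) at or below -0.5, so 2 and 2 of 49 is near the background on either side. Had the values been natural logarithms, 661 genes would stand at or above 0.5 on the log2 scale and 638 at or below -0.5. The same list had medians of 0.16 at 1 h, -0.16 at 4 h and -0.13 at 6 h.

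The AP-1 genes, whose proteins pair to form the AP-1 factor, were mostly negative. Jun was at -0.19, Junb at -0.24, Jund at -0.26 and Fosl1 at -0.40, while Fosl2 was at 0.47. Fos, the activity marker most used in this tissue, had 2 features that did not agree. One was at 0.02 at 2 h and at 0.11, 0.01 and 0.02 at 1, 4 and 6 h. The other, numbered 15860, was at -1.06 at 2 h and at 1.17, -1.17 and -1.01 at the other times, so the mean of -0.52 describes neither feature.

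The Egr and Nr4a factors, zinc finger proteins and orphan nuclear receptors induced by synaptic activity, were split within each family. Egr1 was at -0.37 and Egr4 at -0.22, while Egr2 was at 0.42 and Egr3 at 0.36. Nr4a1 was at -0.13 and Nr4a2 at -0.85, while Nr4a3 was at 0.49. Nr4a2 was as low at 1 h (-0.86) as at 2 h and close to 0 later (0.12 at 4 h and -0.09 at 6 h). Nr4a1 read 0.63, -0.13, -0.28 and -0.36 at the 4 times in order, and Junb 0.35, -0.24, -0.29 and -0.24, so for both the 2 h value already had the sign of the later arrays.

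The activity genes that act at the synapse gave no common sign at 2 h. Arc, which drives removal of AMPA receptors, was at -0.01 after 0.51 at 1 h and before -0.21 and -0.19 at 4 and 6 h. Bdnf, a neurotrophin, was at 0.24 and -0.20 on its 2 features. Homer1, whose short form is induced by activity and uncouples the postsynaptic scaffold, had 4 features at 0.01, -0.44, 0.30 and -0.09, with a mean of -0.05. Dusp1, a phosphatase that shuts off MAP kinases, had a mean of 0.0049. Npas4 had no value at 2 h.

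The stress hormone genes were also divided. Of 28 genes of the glucocorticoid receptor list 13 were above 0 and 15 below. At or above 0.5 were 3 (10.7%, against 2.06% of all genes), and none was at or below -0.5 (3.6% of all genes). These shares were not tested. The 3 were Fkbp4 (0.59), a cochaperone of steroid receptors, Klf9 (0.57), a Krüppel-like factor induced by glucocorticoids in hippocampal neurons, and Arrdc2 (0.52). Klf9 was at -0.18, -0.09 and 0.03 at 1, 4 and 6 h, and Arrdc2 and Fkbp4, with no value at 4 or 6 h, were at -0.64 and -0.20 at 1 h. Some classic targets of the receptor lay the other way or near 0. Fkbp5 was at -0.23, Tsc22d3, which encodes GILZ, at -0.06, and Sgk1, a kinase, at 0.12 and -0.25 on its 2 features. Nr3c1, the receptor itself, was at -0.15.

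**Figure D1:**
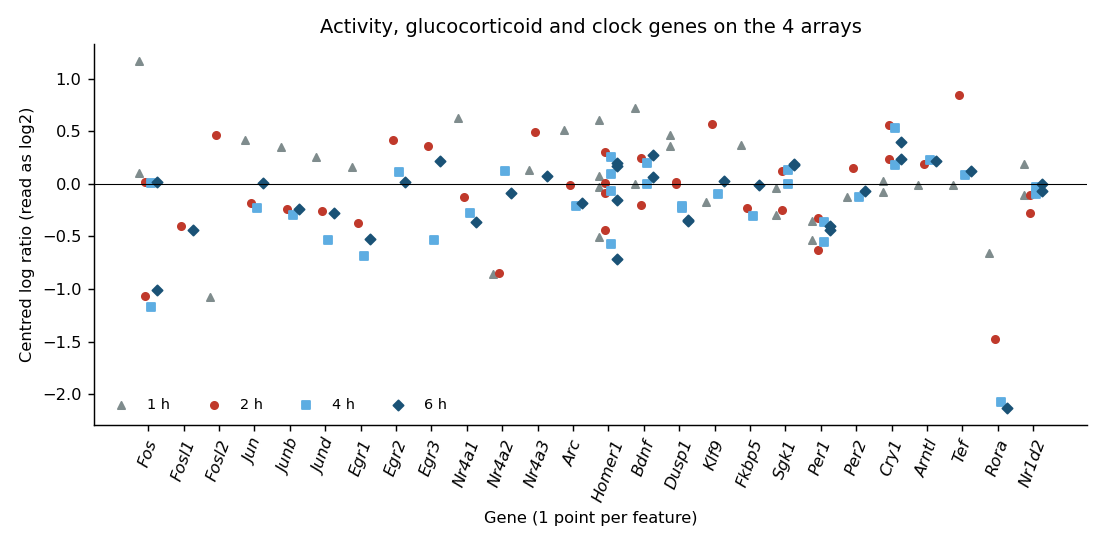
Centred log ratio (vertical axis, read as log2) of every feature of 26 activity, glucocorticoid and clock genes (horizontal axis) at 1 h (triangles), 2 h (circles), 4 h (squares) and 6 h (diamonds), 1 array a time and no error bars. Tef and Klf9 stand above their other times at 2 h, at 0.84 and 0.57, and the 2 Fos features lie apart at 0.02 and -1.06.

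The NMDA receptor subunits, the target of MK-801, had values for 4 of the 5 genes on the array. Grin2b, the GluN2B subunit prominent in young neurons, was positive on both features at 0.33 and 0.25. Grin2a, the GluN2A subunit of mature synapses, was at -0.35 at 2 h and -0.20 at 1 h, then at 0.78 at 4 h and 0.48 at 6 h. Grin2c, at -0.28 and -0.09 on its 2 features, and Grin2d, at -0.22, were also below 0, and Grin1, the obligate subunit, had no value. Grin2b was thus the single measured subunit above 0 at 2 h, and no subunit reached 0.5 in either direction.

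The AMPA, kainate and metabotropic receptors with their scaffolds leaned positive. Of 23 genes 15 were above 0 (65.2%, against 50.8% of all genes, not tested), with a median of 0.12. At or above 0.5 was 1 (4.35%, against 2.06%). This was Gria4 (0.61), an AMPA receptor subunit, followed by Gria1 (0.36), the subunit inserted during potentiation, and Homer3 (0.34). Gria4 was at -0.36, 0.47 and 0.41 at 1, 4 and 6 h, whereas Gria1 was at -0.17, -0.24 and -0.04, above 0 at 2 h alone. Gria2 (0.08) and Gria3 (-0.02) were near 0. Homer2, a scaffold of metabotropic receptors, was positive on all 4 of its features, at 0.45, 0.31, 0.07 and 0.38. Shank3, a master scaffold of the postsynaptic density, was the lowest at -0.35.

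Of 15 GABA and glycine receptor genes 6 were above 0 (40%, against 50.8% of all genes, not tested) and 9 below, with a median of -0.07. The 2 at or below -0.5 (13.3%, against 3.6% of all genes) were Gabrr1 (-2.29) and Gabrr2 (-1.49), both subunits of GABA-gated channels. Their feature numbers, 16881 and 15829, were above 15000, where 2.94% of features were at or below -1, against 0.469% below that number. Only the second lay in the crowded stretch from 15600 to 15899 described further on. Gabrb2, a beta subunit of synaptic receptors, was at 0.43 and Gabrd, the delta subunit of the tonic current in granule cells, at 0.31. Among 51 monoamine, acetylcholine and peptide receptors 2 passed 0.5 (3.92%, against 2.06% of all genes). These were Htr2c (0.63), a serotonin receptor, and Hrh2 (0.53), a histamine receptor. Pomc, the precursor of beta-endorphin, was at 0.51, after 1.32 at 1 h, and was the 1 of 30 neuropeptide genes at or above 0.5 (3.33%).

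Ion channels and transporters were centred near or below 0. Of 53 potassium channel genes 36 were below 0 and the median was -0.06. Kcnip3, a calcium-binding partner of Kv4 channels, was at 0.50. Kcnj12, an inward rectifier, was at -0.28 on one feature and -3.48 on the other, numbered 15765. Among 38 sodium and calcium channel genes the extremes were Scn8a (0.65), the sodium channel of the axon initial segment, and Cacna1b (-0.67), the N-type calcium channel. Solute carriers had 8 of 172 genes at or below -0.5 (4.65%, against 3.6% of all genes). At or above 0.5 were 3 (1.74%, against 2.06%), so both shares were near the background. Slc6a2, the noradrenaline transporter, was the lowest of the solute carriers and negative on both features, at -2.28 and -0.77.

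Signalling genes were centred higher for the cyclic nucleotide pathway than for the MAP kinases. Of 106 cyclic nucleotide, G protein and CaM kinase genes 69 were above 0, with a median of 0.08. No member reached 0.5, against 2.06% of all genes, and 3 were at or below -0.5 (2.83%, against 3.6%). The lowest of the 3 was Rgs11, a regulator of G protein signalling, at -1.31. The 117 MAP kinases and protein phosphatases had a median of 0.0028, with Ppp2r3d at 0.62, Mapk11 at 0.52 and Map3k7, which encodes TAK1, at -1.72. Mapk14, which encodes p38alpha, was at 0.28 on one feature and -1.65 on the other, and Ptpro, a receptor phosphatase, at 0.09 and -1.69. For these genes the mean, -0.69 and -0.80, again described neither feature.

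Several housekeeping families of the cell lay slightly above 0. Kinesins, dyneins and myosins, the motors of transport, had 43 of 62 genes above 0 and a median of 0.14, and Dynll2, a dynein light chain, was positive on both features (0.68 and 0.34). Cytosolic ribosomal proteins, with values for 48 of 70 genes on the array, had 35 above 0 and a median of 0.11. Rpl37a was at 0.53 and Rps20 at -0.48. Citric acid cycle and glycolytic enzymes had 23 of 32 above 0 and a median of 0.10, led by Suclg2 (0.63), a subunit of succinyl-CoA ligase, and Aldoa (0.49). The share above 0 in these families, between 69.4% and 72.9%, compares with 50.8% of all genes, while few members reached 0.5: 1 in each of the 3 lists. The motors had medians of -0.08, 0.16 and 0.09 at 1, 4 and 6 h, and the ribosomal proteins had medians of 0.13, -0.0014 and 0.10. With an exact 0 read as a value, the 2 h medians were 0.08 for the motors, 0.01 for the ribosomal proteins and 0.10 for the enzymes.

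The respiratory chain and ATP synthase had 40 of 57 genes above 0 and a median of 0.08, with Ndufa9, a complex I subunit, at 0.61 and Atp5a1, the alpha subunit of ATP synthase, at 0.53. Mitochondrial ribosomal proteins had 30 of 55 above 0 and a median of 0.02, with Mrpl9 at 0.59. Lysosomal and proton pump genes had 32 of 46 above 0 (69.6%, against 50.8% of all genes) and a median of 0.10. At or above 0.5 were 3 (6.52%, against 2.06% of all genes), which were Gla (0.69), the alpha-galactosidase, Ids (0.51) and Ctsw (0.50). These shares were not tested. Gapdh, a glycolytic enzyme with 16 features on the array, lay between 0.05 and 0.68 and was positive on each, with a mean of 0.48 ± 0.15 (SD over features, which share 1 RNA and 1 array).

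Protein quality control had members on both sides. Heat shock proteins and chaperones had 44 of 68 genes above 0, with Fkbp4 (0.59) and Dnaja3 (0.57) highest and Pdia6, a disulfide isomerase of the endoplasmic reticulum, lowest at -1.01. Hspa1b, an inducible Hsp70, was at 0.10 on one feature and -1.54 on the other. Psmc3, an ATPase of the proteasome, was at 0.59 within a list of 36 subunits with a median of 0.07. Among 95 ubiquitin enzymes Ube2d3 was at 0.66 and Usp9x and Usp48 at -0.79 and -0.77. Cat, catalase, was the lowest of 65 antioxidant genes (-0.76) and Hmox2, a haem oxygenase, the highest (0.57).

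Immune and developmental families differed in their shares of calls, and no share was tested. Cytokines, chemokines and their receptors had 10 of 130 genes at or below -0.5, or 7.69%, where all genes had 3.6%. The lowest were Il20 (-0.81) and Il1a (-0.72), and the highest was Ccl5 (0.65). Il1b, the other classic form of interleukin 1, was positive on both features, at 0.43 and 0.41. Interferon and antigen presentation genes had 2 of 75 at or below -0.5 (2.67%) and 4 at or above 0.5 (5.33%, against 2.06% of all genes), among them the peptide transporter Tap1 at 0.70. Homeobox, Sox and forkhead factors had 9 of 126 at or below -0.5 (7.14%), led by Lhx1 (-3.35) and Sox3 (-2.81), and cell cycle genes had 8 of 105 (7.62%), led by the retinoblastoma relative Rbl1 (-1.47). Cytochromes P450, liver enzymes for the most part, had 5 of 40 (12.5%), and keratins 3 of 25 (12%). At or above 0.5 were 3 genes of the cytokine list (2.31%, against 2.06% of all genes). The homeobox list had 2 (1.59%), the cell cycle list 4 (3.81%), the P450 list 1 (2.5%) and the keratins 0. Zinc finger protein genes were centred lower without many calls, with 49 of 80 below 0, a median of -0.06 and 2 genes past 0.5 in each direction. Splicing factors and RNA helicases had 67 of 114 below 0 and a median of -0.05.

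**Figure D2:**
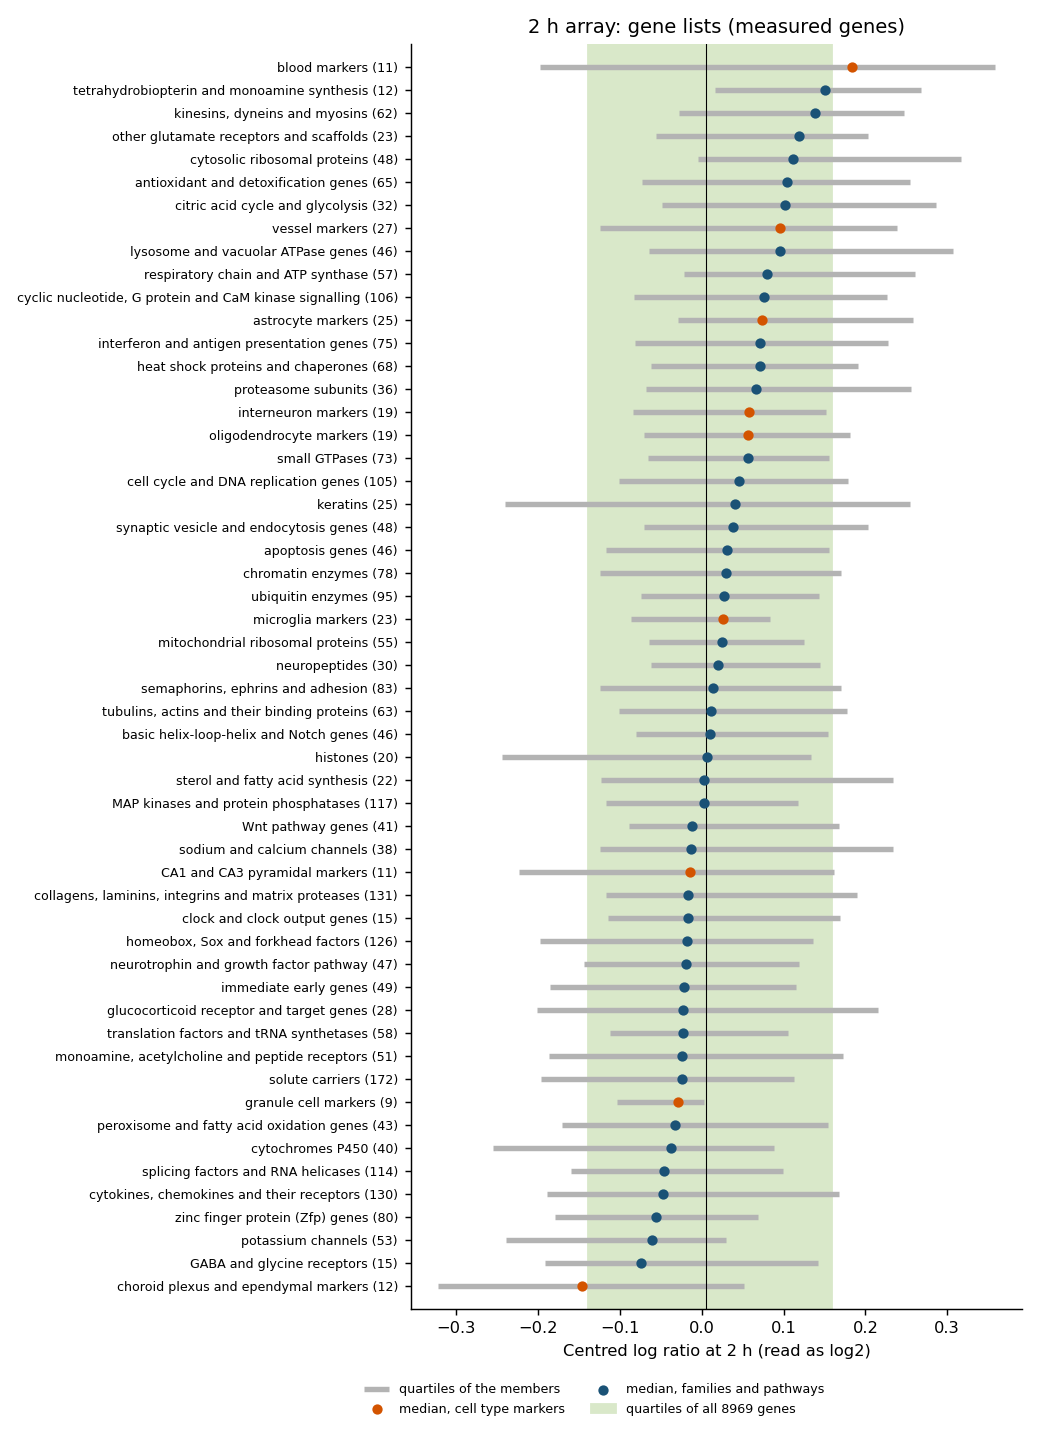
Median (dot) and quartiles (bar) of the centred log ratio at 2 h (horizontal axis, read as log2) for 54 gene lists (vertical axis, number of measured genes in brackets), with the quartiles of all 8969 genes shaded and their median as a line. List medians span -0.15 for choroid plexus and ependymal markers to 0.18 for blood markers, and every bar overlaps the shaded range.

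Marker genes of the cell types that the tissue could hold were described in the same way. Of 9 granule cell markers 3 were above 0 and none was past 0.5, with a range from -0.19 (Jun, also an immediate early gene) to 0.22 (Cck). Prox1, the transcription factor that defines granule cells, was at 0.04, and Calb1, calbindin, was at -0.21 and -0.10. Ratios do not show whether a marker was abundant, so these values do not check the dissection of the tissue itself. Pyramidal cell markers of CA1 and CA3 had a median of -0.01, with Neurod6 lowest at -0.48.

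Choroid plexus and ependymal markers, from tissue that borders the hippocampus, had the lowest median of any list of at least 5 genes, at -0.15. Of 12 markers 8 were below 0, over a range from -1.13 to 0.61. At or below -0.5 were 3 (25%, against 3.6% of all genes), and at or above 0.5 was 1 (8.33%, against 2.06%). These shares were not tested. The list had medians of -0.20, -0.16 and -0.14 at 1, 4 and 6 h, so it was below 0 at every time. Ttr, transthyretin, the most abundant product of choroid plexus, was at -0.90 at 2 h and at -0.20, -0.60 and -0.70 at 1, 4 and 6 h. Kl, klotho, had features at -0.55, -0.20 and -2.64, and Cldn2, a tight junction protein of that epithelium, was at -0.51. Rsph1, a protein of motile cilia, was at 0.61. Whether choroid plexus tissue had a part in other negative values was not tested.

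Blood and vessel markers were spread widely. Of 11 blood markers 6 were above 0, with a median of 0.18. That median became 0.43 over the 5 markers valued at all times and -0.0093 where an exact 0 counted as a value. Haemoglobin genes were positive: Hba-a1 was at 0.49, and Hbb-b2 at 0.42 and 0.43 on 2 features. Icam4, an adhesion protein of red cells, was at 0.80, and Car1, the carbonic anhydrase of red cells, at -2.81 on feature 15631. Acta2, the smooth muscle actin of arterioles, was the highest gene of the array at 0.94, with 0.18 at 4 h, 1.00 at 6 h and no value at 1 h. Sparc (0.53) was the other of 27 vessel markers past 0.5. The 2 made up 7.41% of the list, against 2.06% of all genes, and 15 of the 27 were above 0. Astrocyte markers had 17 of 25 above 0 and a median of 0.07, with Gfap highest at 0.41, and microglia markers had 13 of 23 above 0 and a median of 0.03.

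The highest values of the whole array were small beside the lowest. No gene reached 1 (0.0% of 8969), while 83 (0.925%) lay at or below -1. After Acta2 came Faah (0.93), the hydrolase that degrades anandamide, Arap1 (0.91), a GTPase-activating protein for Arf proteins, and Atp9b (0.90), a P4-type ATPase. Then followed Tef, Axin2 (0.80), an inhibitor and target of Wnt signalling, and Icam4, and below them Umod (0.77), H3c15 (0.77), Lbx2 (0.76), Gkn3 (0.75) and Nipsnap2 (0.75). Each of the 12 rested on 1 feature. The features of Atp9b and Axin2 behind these values had no value at 4 or 6 h, and neither did those of Umod, H3c15, Lbx2 and Nipsnap2. Faah was at 0.08 at 1 h and -0.16 at 4 h. Genes just at the threshold were Kcnip3 and Clcn1, at 0.501 and 0.502, which were called, and Nrbp1 and Plekhb1, at 0.497 and 0.498, which were not.

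The lowest genes were Pgpep1 (-3.60), a pyroglutamyl peptidase, Hes1 (-3.36), the Notch-driven repressor, Lhx1 (-3.35), a LIM homeobox factor, and Sdc3 (-3.35), a syndecan of neurons. Lalba (-3.23), a milk protein, Nfkbib (-3.16), an inhibitor of NF-kB, Scgb1b2 (-3.14) and Ibsp (-3.00), a bone protein, came next. Car1 (-2.81), Sox3 (-2.81), Scd1 (-2.74), a fatty acid desaturase, and Wnt10b (-2.42) completed the 12. The list mixes neuronal genes with products of the mammary gland and bone. All 12 rested on 1 feature. The features of Wnt10b, Nfkbib, Hes1, Lhx1, Scgb1b2 and Sdc3 were numbered 15761, 15762, 15763, 15764, 15766 and 15769, and those of Ibsp and Lalba 15826 and 15831.

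Low values were thus crowded by feature number. Of all windows of 300 feature numbers, taken in steps of 100, that from 15600 to 15899 held the most low features. Among its 222 features 39 were at or below -1 (17.6%), against 78 of the other 12005 (0.65%). Of all 12227 features 117 were at or below -1 (0.957%). Many of the low features were also low later. Of the 117, 88 had a value at 4 h, with a median of -2.27 and 61 at or below -1, and 86 had one at 6 h, with a median of -2.03 and 61 at or below -1. At 1 h the 88 with a value had a median of 0.10, with 40 below 0 and 5 at or below -1. Several of the lowest genes were among those already negative at 1 h: Sdc3 was at -1.75, Lhx1 at -1.22, Hes1 at -1.20, Nfkbib at -0.95, and Pgpep1 and Scd1 at -0.88, while Car1 was at 0.59.

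Where a low gene had a further feature, that feature was seldom at or below -0.5. The 117 features included those of 103 named genes, of which 39 had 46 other features at 2 h. These had a median of -0.08 and ranged from -0.84 to 0.41. Of the 46, 3 were at or below -0.5 and 19 were above 0. Of all 12227 features 3.88% were at or below -0.5, with a median of 0. The difference was not tested. Sdf2l1, a protein of the endoplasmic reticulum, held the lowest feature of the array at -4.25 and a second feature at 0.31. The 3 at or below -0.5 belonged to Kl (-0.55), Slc6a2 (-0.77) and Vmn2r129, a vomeronasal receptor (-0.84), whose lowest features were at -2.64, -2.28 and -1.13.

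**Figure D3:**
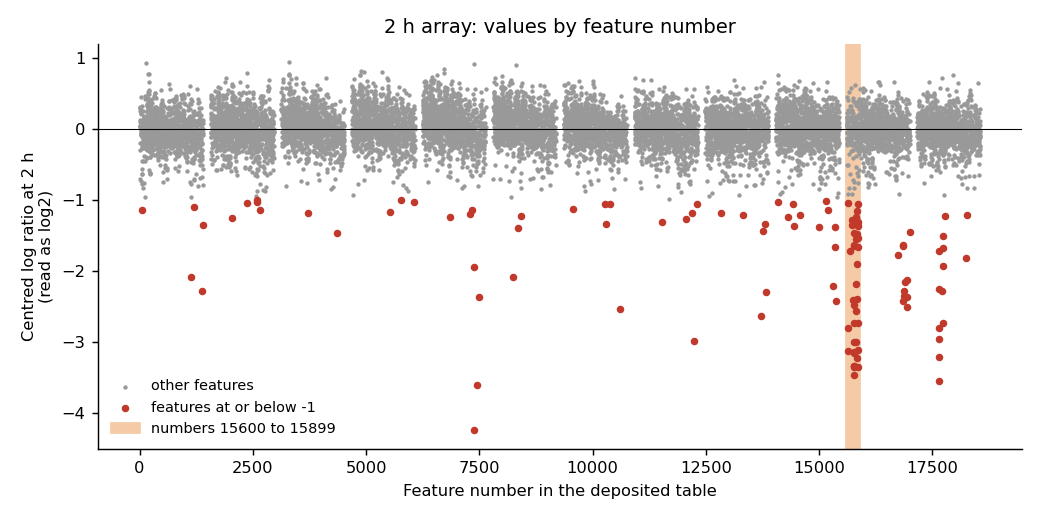
Centred log ratio at 2 h (vertical axis, read as log2) of 12227 features by their number in the deposited table (horizontal axis), with features at or below -1 as larger dots and numbers 15600 to 15899 shaded. The shaded stretch holds 39 of the 117 low features among 222.

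Values past the threshold also came unevenly from features with gaps on other arrays. Over all 12227 features 2.48% were at or above 0.5 and 3.88% at or below -0.5. Features with a value on all 4 arrays numbered 8777, of which 1.32% were at or above 0.5 and 2.42% at or below -0.5. Among the 3450 missing on at least 1 other array the shares were 5.42% and 7.62%. Among the 753 with a value at 2 h alone they were 10.1% and 5.44%, and the median was 0.12. Umod, Lbx2, H3c15, Nipsnap2 and Pim1 lacked values at 4 and 6 h. By stretches of 1000 feature numbers, the median ran from -0.07 for numbers from 18000 to 0.10 for those from 6000 to 6998, where 46 of 641 features (7.18%) were at or above 0.5. Tef, with feature number 6732, and Klf9, with 6760, lay in the latter stretch.

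Genes with several features gave the measure of error that 1 array allows. Of 1519 such genes 790 had the same sign on all their features (52.0%, exact binomial interval 49.5% to 54.5% at 95% confidence, for counting error only). The median SD over the features of a gene was 0.15, close in size to either quartile of all genes. Over the 1394 genes with exactly 2 features 53.9% agreed in sign, and Pearson's r between the features was 0.05 and the rank correlation 0.10, both across genes, which are not independent replicates. Where the first feature was past 0.5 in size, 45 of 79 second features had its sign (57%). On the other arrays the share of genes whose features all agreed in sign was 50.7% at 1 h, then 58.4% (4 h) and 59.6% (6 h). Features of a gene may also report different transcripts, which was not examined.

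**Figure D4:**
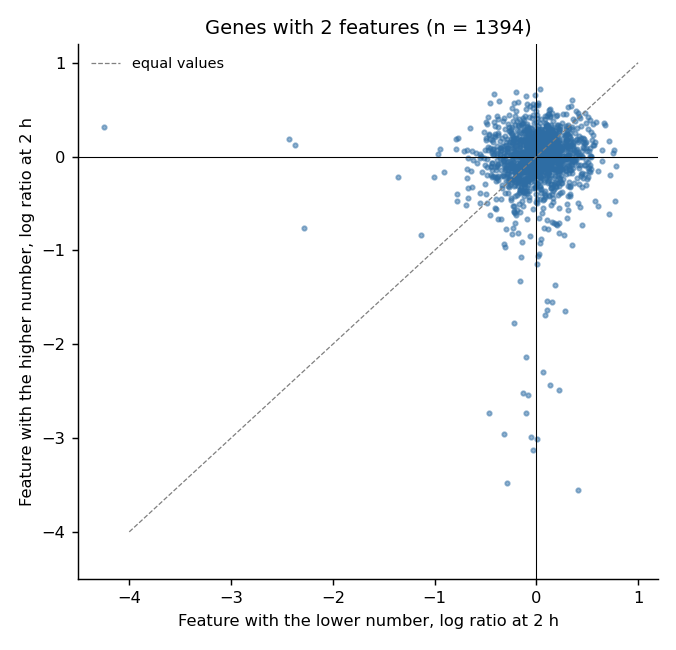
Log ratios at 2 h of the 2 features of 1394 genes, the feature of lower number on the horizontal axis and that of higher number on the vertical axis (both centred, read as log2), with a dashed line of equal values. Points form a round cloud near 0, and low values on one axis mostly meet values near 0 on the other.

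The genes whose features did agree make a shorter list than the extremes. Of the 185 genes at or above 0.5, 183 rested on 1 feature, and the 2 with several, Dynll2 (0.68 and 0.34) and Ppm1b (0.67 and 0.36), were positive on both. Of the 323 at or below -0.5, 270 rested on 1 feature, and 35 of the 53 with several agreed in sign. Ranked by the smaller of their values, a choice made on the values themselves that adds no support, the first positive genes were Gpld1 (0.48 and 0.46), a phospholipase that releases GPI-anchored proteins, and Ywhaz (0.51 and 0.42), a 14-3-3 protein. Next came Hbb-b2, Il1b, Cd5l (0.41 and 0.47), secreted by macrophages, and Ywhae (0.39 and 0.48), another 14-3-3 protein. Atp9a, at 0.53 and 0.39, is a relative of Atp9b. Prkcb, protein kinase C beta, gave nearly equal values at 0.38 on both, and Pnoc, the precursor of nociceptin, gave 0.36 and 0.40. Whrn (0.59 and 0.37) and Tspan6 (0.49 and 0.35) were the remaining pair of the 12.

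The first negative genes by this ranking were Vmn2r129 and Slc6a2, given above, and then Npy4r (-0.69 and -0.52), a receptor of pancreatic polypeptide, and Mc2r (-0.55 and -0.50), the corticotropin receptor of the adrenal gland. Ryr3, a calcium release channel of hippocampal neurons, was at -0.48 and -0.49. Cxcl11 (-0.78 and -0.47), Fcgr2b (-0.46 and -2.74), Ms4a7 (-0.78 and -0.40) and Clec7a (-0.40 and -0.55) act in immune cells, where Clec7a is the receptor dectin-1. Ccndbp1 (-0.45 and -0.63), Mcoln1 (-0.67 and -0.44), the mucolipin channel of lysosomes, and Dolpp1 (-0.49 and -0.40) completed the 12.

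Of the 8969 genes 7136 had an entry in the RefSeq promoter table, and the 250 bases before each start were searched on both strands. The AP-1 site TGANTCA stood for 36 of 253 genes at or below -0.5 (14.2%), for 11 of 145 at or above 0.5 (7.59%), for 6.99% of all 7136 and in 6.75% of 32851 windows of the table. The TATA box TATAAA stood in 19.0% of the negative group, 13.8% of the positive group and 11.4% of all. The E-box CACGTG stood in 5.53%, 9.66% and 9.42%, with 6.02% of all windows. The full cyclic AMP response element TGACGTCA was rare throughout, at 0.395%, 1.38% and 2.37%, and the EGR site GCGNGGGCG stood in 8.3%, 8.97% and 9.39%. The SRF core site stood in 0.395%, 2.76% and 1.58%. These shares were not tested, and genes of the negative group include those on the crowded features.

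The last comparison asked which genes had another value at 2 h than at other times. limma was fitted to the 6661 genes with values on all 4 arrays, with the spread between other times as the error and the lone 2 h array assumed to vary like them. The p-values thus rest on how arrays of different hours varied, from technical and biological sources alike. In the contrast with 4 and 6 h alone, given further on, the error was the difference between the 4 h and 6 h arrays only. Those arrays were grouped because their ratios were most alike in an earlier analysis of these data. The standard errors and p-values of that contrast may therefore be too small. Against the mean of 1, 4 and 6 h, limma called 0 genes (0.0%) at the adjusted threshold of 0.05. Before adjustment 151 genes had a p under 0.05 (70 higher at 2 h and 81 lower), and the lowest adjusted p was 1.00. No alternative setting called any gene in this contrast. The smallest p among higher genes was that of Tef, whose difference of 0.78 ± 0.15 (SE) had a limma adjusted p of 1.00. Fancc, a DNA repair gene (0.65), Arap1 (0.99), Slc31a2 (0.65), Tor1b (0.76), Gtf2a1 (0.73), Cotl1 (0.58) and Klf9 (0.65) followed in that order. On the lower side stood Anapc15, a subunit of the anaphase-promoting complex (-1.22 ± 0.14), Ly6g (-1.15), Sypl (-1.43) and Rchy1, a ubiquitin ligase (-2.17). None of these differences passed the test.

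Values at 2 h ran with those at 4 and 6 h and not with those at 1 h. Across features, which share an array and its dyes and are not independent replicates, Pearson's r with 2 h was -0.09 for 1 h (10663 features), 0.68 for 4 h (9680) and 0.70 for 6 h (9907). Without the features at or below -1 on either array of a pair it was -0.14 (10538 features), 0.45 (9571) and 0.53 (9800). Against the mean of 4 and 6 h alone, limma again called 0 of 6661 genes (0.0%). Before adjustment 839 had a p under 0.05 (398 higher at 2 h and 441 lower), and the lowest limma adjusted p was 0.0552. With the arrays brought to equal spread 5 genes passed, all lower at 2 h, and without features that have low neighbours by number (at least 3 of the nearest features, 10 on each side, at or below -1) 3 did (Tex47, Rchy1 and Vdac1).

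The 5 genes with equal spread were Tex47, Rchy1, Vdac1, Pikfyve and Cat. Tex47, a testis gene, was at -0.56 at 2 h and 1.29 on average at 4 and 6 h, a difference of -1.85 ± 0.10 (SE, limma adjusted p 0.0552, with 0.0209 to 0.171 over the alternative settings). Vdac1, the main pore of the outer mitochondrial membrane, was at -0.22 at 2 h against 1.38 later (-1.59 ± 0.10). Cat was at -0.76 against 1.42 (-2.18 ± 0.17, limma adjusted p 0.0837). Tex47, Vdac1 and Cat were negative at 1 h as well (-1.43, -0.38 and -0.61), so their late values were the ones that stood out. Rchy1 was at -2.09 at 2 h against -0.20 later and 0.67 at 1 h, and Pikfyve, the kinase that makes PtdIns(3,5)P2, at -1.18 against 0.28 later and -0.48 at 1 h. The 2 h value of Rchy1 was the only one of its 4 below -0.5.

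Genes higher at 2 h than later were led by Arap1, at 0.91 against -0.21 (1.12 ± 0.10, limma adjusted p 0.118). Tmed10, a cargo receptor of the early secretory pathway, was at 0.35 against -0.79. Supt4a, Zbtb20, Fut9, Sox11, Mospd4 and Anxa10 were between -0.42 and 0.13 at 2 h, so their differences of 0.69 to 1.08 came from negative later values. Zbtb20, a transcription factor of hippocampal neurons, was at 0.02 against -1.06, and Sox11, a factor of newborn neurons, at 0.08 against -0.77. Tor1b was at 0.39 against -0.46. Tef was at 0.84 against 0.10 (0.74 ± 0.10, limma adjusted p 0.198), so Tef and Arap1 were the 2 of these 10 with a 2 h value past 0.5. None of the 10 passed the test.

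**Figure D5:**
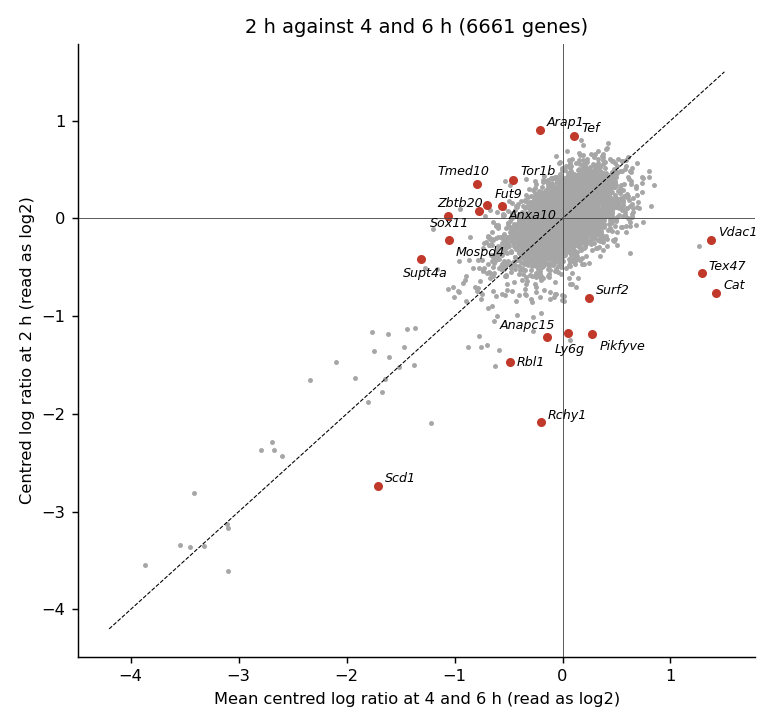
Centred log ratio at 2 h (vertical axis) against the mean of 4 and 6 h (horizontal axis), both read as log2, for 6661 genes, with a dashed line of equal values. The labelled dots are the 10 genes of smallest p in each direction, among them Arap1 and Tef above the line and Vdac1, Tex47, Cat and Rchy1 below it.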

How the data were processed

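The authors deposited 1 table of log ratios for the series, whose base the deposited table does not state and which were read here as log2. Their scanning, background correction and normalisation are not given in the sources used here. No intensities came with the ratios, so signal over background was not examined. Precision is limited by the number of arrays. An exact 0 filled 24.9% of the 2 h column, where other values occurred at most 2 times, and was read as no value. Of the features with a value, 37 had several symbols and 1557 none. Entrez identifiers of 10602 matched the GRCm38.p6 gene table, and 0 symbols changed. The median of the array was subtracted and the features of a gene were averaged.

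Genes at or beyond 0.5 were counted. Lists were described, not tested. limma 3.58.1 under R 4.3.3 (lmFit, eBayes, two-sided, Benjamini-Hochberg over 6661 genes) compared 2 h with other times, and was tested on simulated data. Genes, lists and tests were chosen with earlier results of these data known. Named were the 12 highest and 12 lowest genes, the 12 of each sign whose features agreed best, the 4 members of each list of largest size, the 10 of smallest p in each direction of each contrast, all measured members of lists under 5 genes, and a fixed set of activity, stress and clock genes. Further members and features were named after their values were seen.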

Additional observations from a re-analysis of the deposited data

How the results depend on the processing

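The number of genes at or above 0.5 was 185 and that at or below -0.5 was 323. Over features with values on all 4 arrays they were 73 and 161, with values read as natural logarithms 661 and 638, and at a size of 1 in place of 0.5 they were 0 and 83. The other alternatives (median or 1 feature per gene, exact 0 as a value, no centring, equal spread, no features with low neighbours, and centring by stretches of 1000 feature numbers, which was chosen after seeing the data) kept both within 1.5 times. The blood marker median of 0.18 became 0.43 on all 4 arrays and -0.0093 with exact 0 as a value. Of 54 list medians 13 changed sign with exact 0 as a value, 7 on all 4 arrays, 5 with 1 feature per gene, 5 with centring by stretches and 1 without features that have low neighbours. Some genes turned positive where a low feature was left out: Fos became 0.021 and Hspa1b 0.10 with 1 feature per gene and without low neighbours, Mapk14 0.28 with 1 feature per gene and on all 4 arrays, and Ptpro 0.088 under all of these. In limma, 2 h against 4 and 6 h called 5 genes with equal spread and 3 without low neighbours, in place of 0. Against all other times 0 genes passed without the 1 h, the 4 h or the 6 h array, with 839, 40 and 50 at an unadjusted p under 0.05. The fit without the 1 h array is the same as that of 2 h against 4 and 6 h, so it is no separate check. Leaving out 4 or 6 h from the contrast of 2 h with 4 and 6 h left no residual degrees of freedom and was not run. The cause of these changes was not tested. No paired analysis was possible because each time had 1 array.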
